A study of Bos taurus with 12 samples.

Results

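Cell division and DNA replication genes were examined in the bovine endometrium, the inner lining of the uterus. The set comprised 8 genes of 6689 with a symbol on the array, namely CDC45, CCNA2, CDCA3, AURKB, CENPF, STMN1, PRC1 and NEIL3. They were picked by name, with earlier results of the same arrays known, in which cell cycle genes differed between seasons on the side of the corpus luteum and CDC45 on the opposite side. All 5 comparisons below share arrays with those season differences, so the values of the 8 genes are given as descriptions and not tested. Each gene had 1 probe, and all 8 were kept for the fit.

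Biopsies of Japanese-Black cows were taken at day 15 of the cycle, in summer (early September) or autumn (mid-November) over 2 consecutive years. In each season endometrium was sampled on the CL side, the uterine horn next to the corpus luteum, which is the ovarian body that secretes progesterone, and on the non-CL side, the opposite horn. This gave 4 groups of 3 arrays, CL-side summer, non-CL-side summer, CL-side autumn and non-CL-side autumn, each array hybridised with Cy3-labelled RNA of 1 sample. All groups shared breed, tissue and cycle day, and no treatment is named in the labels. Whether replicates are separate animals is not given in the labels, so errors measure only the spread between these samples.

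Dividing cells copy their DNA in S phase and separate it in mitosis, and transcripts of many proteins used accumulate while the cell is cycling. Transcripts of mitotic proteins peak in the G2 phase and in mitosis, whereas those of replication factors peak earlier, at the entry to S phase. In the cyclic endometrium, epithelial and stromal cells divide under estrogen and progesterone. In a biopsy, a change in the number of dividing cells and a change in RNA per cell cannot be told apart.

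Expression was read by 60-base probes, and parts of them are shown because the levels below rest on a single probe per gene. Of the 8 probes, 3 contained a hexamer of the kind that directs polyadenylation, AATAAA or ATTAAA, searched on the printed strand alone. Such a hexamer was found in 14.9% of all 15208 non-control probes, and the search was chosen after the sequences had been seen. The 30 bases around it are given with the hexamer in capitals.
STMN1: acttgaatggttAATAAAactgcacagtgc
NEIL3: aaatgggccaggAATAAAcattattccagg
CDCA3: tgatgtacttctgtatATTAAAgcaagtga
CENPF had a steep difference between arrays and CDC45 a pattern of its own, so their whole probes are given for contrast. Neither contained the hexamer.
CENPF: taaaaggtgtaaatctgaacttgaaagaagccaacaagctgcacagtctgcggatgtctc
CDC45: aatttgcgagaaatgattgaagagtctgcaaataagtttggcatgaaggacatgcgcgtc
The share of G and C was 35% to 45% in the 8 probes, with a median of 42.5% against 43.3% over all probes.

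All levels are log2 values relative to the 75th percentile of their array, so 0 is the level of that percentile, and values were not allowed below a floor of −7.28. Levels of different genes come from different probes and are not compared. The 75th percentile of the signal ranged from 3516 to 4418 over 11 arrays. It was 2007 for replicate 2 of CL-side summer, the dim array in what follows, which also had the lowest median correlation with the others (0.951). Per array, 79.2% to 84.1% of probes stood well above background. The lowest share was that of CL-side autumn replicate 1. This array also had the most signals at or below 0, 2092 against 802 to 1329 elsewhere. Its share of kept values at the floor was 5.11%, against 0.71% to 2.85% on the other arrays. Epithelial markers (10 of 12 on the array, 9 well above background on all 12 arrays), stromal markers (9 of 10 and 8) and the receptor genes PGR, ESR1 and OXTR (all 3 on the array, 2 on all 12 arrays) were present, as the tissue label says. Of 6 ovarian and luteal genes, all on the array, 2 were detected above background throughout and CYP19A1, aromatase, on no array.

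High levels in CL-side autumn were carried by replicates 2 and 1 and not by replicate 3. For 7 of the 8 genes replicate 2 was the highest and replicate 1 the next-highest of all 12 arrays, an order of these arrays at the top that held, in either sequence, for 2.4% of all 12272 probes measured on every array. CDC45 was the exception. Averaged over the 8 genes as the difference from each gene's 12-array mean, the score was 1.93 on CL-side autumn replicate 2 and 1.02 on replicate 1. CL-side autumn replicate 3 stood at −0.20, and the 9 remaining arrays lay between −0.59 and −0.14. These values chose the genes and are a description.

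CDCA3 encodes a protein that triggers mitotic entry by helping to remove the inhibitory kinase WEE1. Its log2 level was −1.96, −0.64 and −4.38 on CL-side autumn replicates 1 to 3, and −4.30, −3.93 and −4.21 on CL-side summer replicates 1 to 3. On the non-CL side it was −4.46, −4.53 and −4.10 in autumn and −5.00, −4.35 and −4.31 in summer. CL-side autumn replicates 1 and 2 thus stood alone, and replicate 3 lay among all other samples. Against the median of the other 10 arrays, the level was 12.9-fold on CL-side autumn replicate 2, 5.16-fold on replicate 1 and 0.968-fold on replicate 3.

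CENPF encodes a large kinetochore and nuclear matrix protein that accumulates in G2. It had log2 levels of −3.40, −2.41 and −5.93 on CL-side autumn replicates 1 to 3 and of −5.64, −5.37 and −5.67 in CL-side summer. Non-CL-side levels were −6.10, −5.92 and −6.07 in autumn and −6.30, −5.79 and −5.74 in summer. The same CL-side autumn arrays were high, and the third lay below all CL-side summer arrays. Its level was 10.9-fold that of the median of the other 10 arrays on CL-side autumn replicate 2 and 5.47-fold on replicate 1.

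PRC1 bundles the antiparallel microtubules of the central spindle during cytokinesis. Its log2 levels on the CL side were −1.46, −0.96 and −3.38 in autumn and −2.97, −2.58 and −3.25 in summer. Non-CL-side arrays gave −2.98, −3.63 and −3.41 in autumn and −3.58, −3.17 and −3.13 in summer. Seasons overlapped on the CL side because replicate 3 of autumn lay below every summer array there. The distance from the median of the other 10 arrays was 4.77-fold for CL-side autumn replicate 2 and 3.37-fold for replicate 1.

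AURKB is the kinase of the chromosomal passenger complex, which corrects wrong attachments of chromosomes to the spindle. It measured −3.18, −2.41 and −4.23 (log2) on CL-side autumn replicates 1 to 3 and −4.49, −4.18 and −4.38 in CL-side summer. On the non-CL side it measured −3.81, −4.84 and −4.63 in autumn and −4.93, −4.47 and −4.42 in summer. Here the third-highest array was non-CL-side autumn replicate 1, from the opposite horn of the same number. CL-side autumn replicates 2 and 1 reached 4.11-fold and 2.40-fold the median of the other 10 arrays.

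CCNA2, the cyclin that drives S phase and entry into mitosis, had log2 levels of −4.45, −3.19 and −4.80 on the CL side in autumn and −5.05, −5.56 and −4.95 in summer. The non-CL side gave −4.89, −5.08 and −4.63 in autumn and −4.92, −5.06 and −5.32 in summer. All 3 CL-side autumn arrays were above all CL-side summer arrays, but replicate 3 was lower than non-CL-side autumn replicate 3. The excess over the median of the other 10 arrays was concentrated in CL-side autumn replicate 2 (3.51-fold), with 1.46-fold in replicate 1.

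STMN1 encodes stathmin, which destabilises microtubules and must be switched off by phosphorylation for the spindle to form. It stood at 2.08, 2.65 and 1.86 (log2) on CL-side autumn replicates 1 to 3 and at 1.37, 0.59 and 1.48 in CL-side summer, where 0.59 came from the dim array. On the non-CL side it stood at 1.83, 1.62 and 1.39 in autumn and 1.37, 1.39 and 1.61 in summer. CL-side autumn did not overlap with any of the other 3 groups, although replicate 3 exceeded the highest of them by little. On CL-side autumn replicates 2 and 1 STMN1 was 2.32-fold and 1.56-fold the median of the other 10 arrays.

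NEIL3 is a DNA glycosylase that starts repair of oxidised bases and is made in dividing cells. It gave −5.89, −4.07 and −6.44 (log2) on CL-side autumn replicates 1 to 3 and −6.62, −7.28 and −6.83 in CL-side summer, where the dim array was at the floor and not well above background. On the non-CL side it gave −7.25, −7.28 and −6.81 in autumn and −6.87, −6.53 and −6.77 in summer. It was well above background on all 3 CL-side autumn arrays and on 2 of 3 arrays in each other group. In these values CL-side autumn did not overlap with any other group, and replicate 2 was 6.72-fold the median of the other 10 arrays. Levels of NEIL3 outside CL-side autumn lie near the floor. In the log2 table deposited by the authors, CL-side autumn replicates 1 to 3 had −4.05, −3.97 and −4.74. There the dim array had −4.32, above replicate 3, and the remaining arrays −5.41 to −5.07.

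CDC45, part of the helicase that unwinds DNA at the replication fork, had higher levels in autumn on both sides in these values. Its log2 levels were −6.37, −6.37 and −7.15 in CL-side autumn and −6.31, −5.29 and −6.77 in non-CL-side autumn. In summer they were −7.28, −7.28 and −7.25 on the CL side, where no array was well above background, and −7.28, −7.28 and −7.04 on the non-CL side. The top array was non-CL-side autumn replicate 2, and every autumn array was above every summer array of its own side. These levels lie near the floor. In the authors' deposited table, which treats low signals in a way that is not stated, the highest CDC45 value was instead −4.10, on CL-side autumn replicate 1, and the seasons overlapped on both sides.

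**Figure D1:**
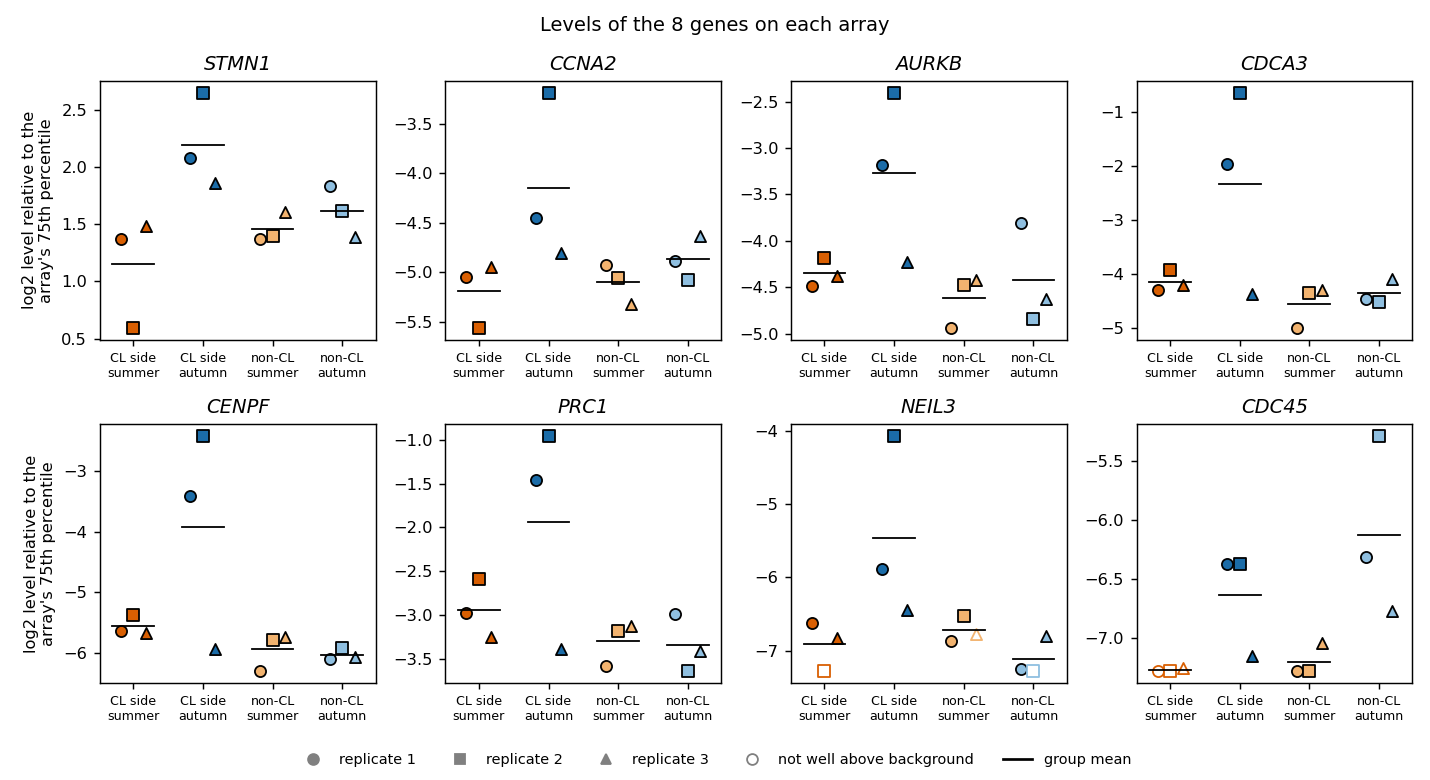
Log2 level of each of the 8 genes (relative to the 75th percentile of the array) on every array, by group, with 1 symbol per replicate number, open symbols where the probe was not well above background, and a bar at the group mean. For 7 genes the square and the circle of CL-side autumn, replicates 2 and 1, lie above all other arrays, and for CDC45 the highest array is non-CL-side autumn replicate 2.

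On the CL side all 8 genes had lower group means in summer than in autumn. The median difference, summer minus autumn, was −1.06 on the log2 scale, with a range of −1.82 to −0.64, whereas the median over all 12381 probes was 0.02. CDCA3 went from −2.33 ± 1.90 (SD, n = 3) in autumn to −4.15 ± 0.20 (SD, n = 3) in summer, a difference of −1.82 ± 0.71 (SE). CENPF differed by −1.65 ± 0.67, NEIL3 by −1.44 ± 0.49 and AURKB by −1.08 ± 0.41. STMN1 had 2.20 ± 0.41 (SD, n = 3) in autumn and 1.15 ± 0.48 (SD, n = 3) in summer, a difference of −1.05 ± 0.27 (SE). The differences of CCNA2, PRC1 and CDC45 were −1.04 ± 0.36, −1.0 ± 0.51 and −0.64 ± 0.34. CDC45 was not well above background on any CL-side summer array, so its summer mean is that of values near the floor. Under this scaling and floor the lower bound on its autumn level was 1.56-fold that mean. The bound does not hold under other treatments of background, given below, which made the difference smaller.

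The spread within CL-side autumn was widest for CDCA3, CENPF, PRC1 and NEIL3. SDs there were 1.90 for CDCA3, 1.82 for CENPF, 1.28 for PRC1 and 1.24 for NEIL3, against 0.16 to 0.33 for the same genes in CL-side summer. Only STMN1, CCNA2, NEIL3 and CDC45 had no overlap between seasons, 4 of 8 genes lower in summer, against 5.02% of 12303 probes in that direction. In the other direction 7.97% of probes and 0 of the 8 genes did not overlap. In the authors' deposited table STMN1 alone, 1 of 8 genes, had no overlap between seasons. There the dim array lay above CL-side autumn replicate 3 for CCNA2, NEIL3 and CDC45. Shares of all probes without overlap were computed on the rescaled values alone, here and in the other comparisons. A difference below 0 was found for 47.0% of all probes, and 0.0% of the 12381 probes passed limma's threshold of 0.05 on the adjusted p. The percentages are given for orientation, since the genes were picked for this difference.

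Leaving out arrays showed how far the values rest on them. Without CL-side autumn replicate 2 the median of the 8 genes was −0.69, and CDCA3 had −0.98, CENPF −0.89 and PRC1 −0.52. Without replicate 3 it was −1.64, with −2.85 for CDCA3 and −2.66 for CENPF. With that array removed 7 probes of all those tested passed limma's threshold for this comparison, and these 2 genes were among them. The array removed is the one without high levels, and the comparison had served to pick the genes, so no support is drawn from it. Without the dim array STMN1 had −0.77 and the median was −1.17. On the first of the 2 slides alone, which held all 6 summer arrays and 1 autumn array per side, CDCA3 had −2.19, CENPF −2.16 and STMN1 −0.93. With slide as a block these were −1.95, −1.87 and −1.1. CL-side autumn replicate 1 was on the first slide and replicates 2 and 3 on the second, so each slide held 1 of the high arrays.

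The values of dim genes depended on the treatment of background. NEIL3 had a season difference of −0.46 with normexp background correction and −0.70 in the authors' deposited table. For CDC45 these were −0.22 and −0.29. CCNA2 had −0.58 and −0.77 in place of −1.04, and CENPF −1.14 and −1.34 in place of −1.65. AURKB had −0.79 and −0.98 in place of −1.08, and PRC1 −0.90 and −1.0 in place of −1.0. CDCA3 had −1.57 and −1.74, and STMN1 −1.04 in both.

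On the non-CL side the measured season differences of the genes other than CDC45 lay nearer to 0 than on the CL side. CDCA3 measured −4.36 ± 0.23 (SD, n = 3) in autumn against −4.55 ± 0.39 (SD, n = 3) in summer, differing by −0.19 ± 0.71 (SE). CENPF and PRC1 differed by 0.09 ± 0.67 and 0.05 ± 0.51, STMN1 by −0.15 ± 0.27, AURKB by −0.19 ± 0.41, CCNA2 by −0.24 ± 0.36 and NEIL3 by 0.39 ± 0.49. Each of these 7 was smaller than its standard error, and summer and autumn overlapped for all 7. With standard errors of 0.27 to 0.71, these arrays do not show whether the seasons were alike.

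CDC45 was the member that differed on the non-CL side, at −1.07 ± 0.34. Its autumn mean of −6.12 ± 0.76 (SD, n = 3) and summer mean of −7.20 ± 0.14 (SD, n = 3) came from arrays that did not overlap. The share of all probes that did not overlap and were lower in summer on this side was 3.45%, and 2.62% were higher. CDC45 had been picked for this difference. Without non-CL-side autumn replicate 2 it was −0.66, with normexp −0.34 and in the authors' deposited table −0.27. That table also had −0.03 for both CENPF and NEIL3 here, the opposite sign, and there CCNA2 and not CDC45 was the 1 gene of 8 with no overlap. The median over the 8 genes was −0.17, 5 of them were below 0 as were 50% of all probes, and 0.0% of 12383 probes passed limma's threshold.

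**Figure D2:**
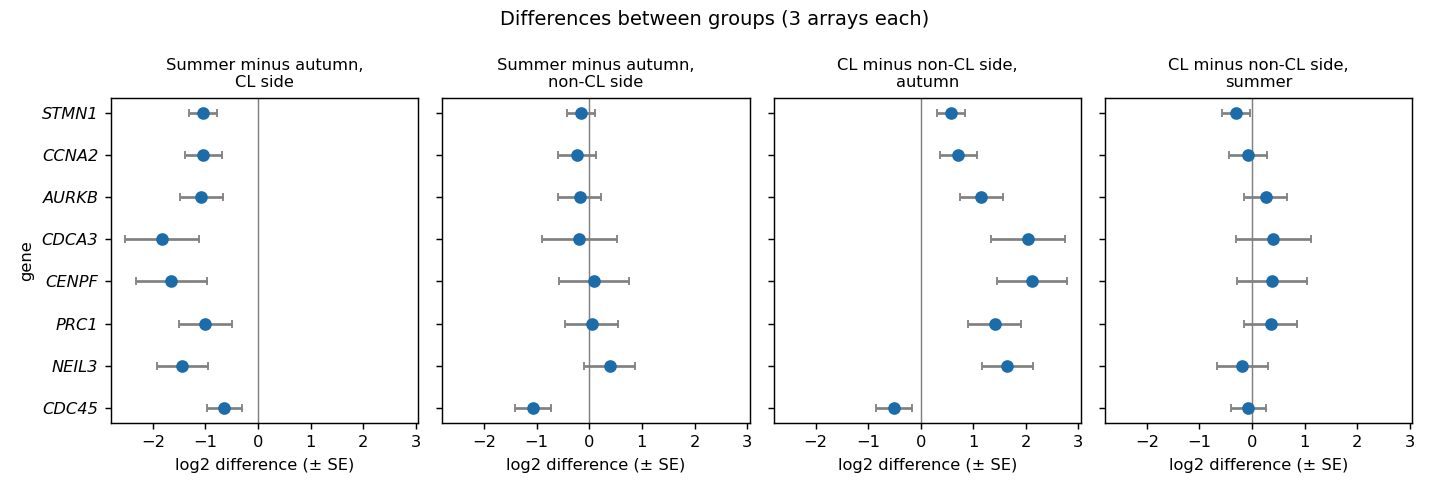
Log2 differences between group means (points) with their standard errors (bars) for the 8 genes, in 4 comparisons of 3 arrays against 3. On the CL side all 8 season differences lie below 0, and in autumn 7 of 8 side differences lie above 0 with CDC45 at −0.51.

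The horns were compared within autumn, with the CL-side autumn arrays that also entered the season comparison. CENPF was higher on the CL side by 2.12 ± 0.67 (SE, log2), CDCA3 by 2.04 ± 0.71, NEIL3 by 1.65 ± 0.49, PRC1 by 1.41 ± 0.51 and AURKB by 1.15 ± 0.41. Smaller differences of 0.72 ± 0.36 and 0.58 ± 0.27 were measured for CCNA2 and STMN1, and CDC45 had −0.51 ± 0.34, or 0.33 in the authors' deposited table. The median over the 8 genes was 1.28, against −0.04 over 12378 probes, of which 57.4% were lower on the CL side. Only STMN1 and NEIL3 did not overlap between horns, 2 of 8 genes against 2.35% of all probes. In the other direction it was 0 of 8 genes and 5.55% of probes, and 0.0% of probes passed limma's threshold. In the authors' deposited table CCNA2 and CENPF did not overlap either, 4 of 8 genes, with no share over all probes computed there. Without CL-side autumn replicate 2 CCNA2 had 0.24 and CDCA3 1.19. Without replicate 3 CENPF had 3.12, CDCA3 3.06 and PRC1 2.13. With that array removed 6 probes of all those tested passed limma's threshold for the side in autumn, and these 3 genes were among them. As for the season, no support is drawn from this. On the second slide alone, with 2 autumn arrays per side, CENPF had 1.82 and CDCA3 1.81.

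Same-numbered horns of a season deviated from their group means together, with correlations of 0.137 to 0.500 over probes, so the horns can be set side by side by number. In autumn, number 2, the CL side exceeded the non-CL side by 3.90 for CDCA3, 3.51 for CENPF, 3.21 for NEIL3, 2.68 for PRC1 and 2.43 for AURKB. Number 1 had 2.50 for CDCA3, 2.70 for CENPF, 1.36 for NEIL3, 1.52 for PRC1 and 0.63 for AURKB. In number 3 the horns lay close, with −0.28 for CDCA3, 0.14 for CENPF and 0.03 for PRC1. For CDCA3 and CENPF the non-CL-side autumn arrays of numbers 1 and 2 lay within the range of the summer arrays of both sides. This did not hold for every gene, as AURKB had its third-highest level on non-CL-side autumn replicate 1 and CDC45 its highest on replicate 2.

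**Figure D3:**
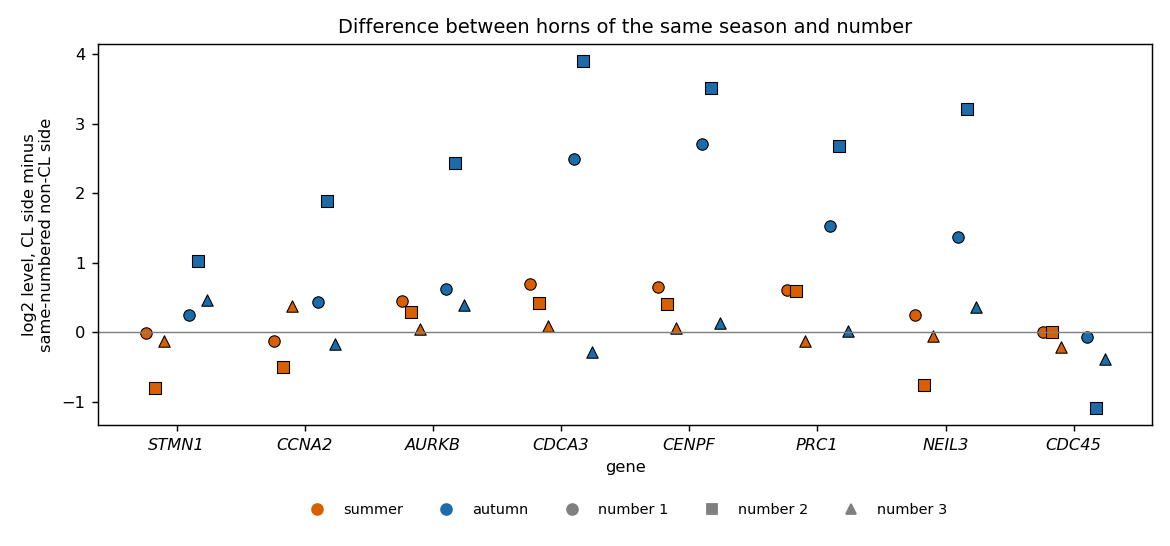
Log2 level on the CL side minus that on the same-numbered non-CL side (vertical axis) for each of the 8 genes, for 3 numbers in summer (orange) and 3 in autumn (blue). Autumn numbers 2 and 1 reach 3.90 and 2.50 for CDCA3, while the summer points of all 8 genes lie between −0.80 and 0.70.

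Between the horns in summer, a comparison that shares its CL-side arrays with the season difference, the values of the 8 genes lay nearer to 0 than between the horns in autumn. CDCA3 was higher on the CL side by 0.41 ± 0.71 (SE), CENPF by 0.38 ± 0.67, PRC1 by 0.36 ± 0.51 and AURKB by 0.26 ± 0.41. Values below 0 were measured for STMN1 (−0.31 ± 0.27), NEIL3 (−0.19 ± 0.49), CCNA2 (−0.08 ± 0.36) and CDC45 (−0.07 ± 0.34), 4 of 8 genes against 51.1% of all probes. In the authors' deposited table CCNA2, NEIL3 and CDC45 had 0.21, 0.31 and 0.30 instead. Of 12389 probes 0.0% passed limma's threshold. CDCA3 and CENPF did not overlap between horns, 2 of 8 genes, against 1.88% of all probes higher on the CL side, and 0 of 8 against 1.65% lower. In the authors' deposited table all 8 genes overlapped between the horns in summer. Standard errors were 0.27 to 0.71, so these arrays do not show whether the horns were alike.

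The season difference on the CL side minus that on the non-CL side was −1.83 ± 0.69 for NEIL3, −1.74 ± 0.95 for CENPF, −1.63 ± 1.0 for CDCA3 and −1.05 ± 0.72 for PRC1. STMN1, AURKB and CCNA2 had −0.89 ± 0.38, −0.89 ± 0.58 and −0.80 ± 0.51, and CDC45 had 0.44 ± 0.48. In the authors' deposited table CDC45 had −0.03 and NEIL3 −0.67, and with normexp NEIL3 had −0.72. The median was −0.97 against 0.03 over 12375 probes, 7 of 8 genes were below 0 against 46.1% of probes, and 0.0% of probes passed limma's threshold. All of this rests on the arrays already described.

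Among themselves most of the genes varied together. Over the 12 arrays the 21 pairs without CDC45 had Pearson correlations of 0.58 to 0.99 with a median of 0.83. When CL-side autumn replicates 1 and 2, the arrays farthest from the median score, were left out, the correlations over the same 21 pairs ran from −0.73 to 0.75 with a median of −0.04. AURKB, CDCA3, CENPF and PRC1, singled out after their values were seen, still varied together on those 10 arrays, with 0.30 to 0.75 over all 6 of their pairs. CDC45 correlated with the other 7 genes at 0.09 to 0.46 over the 12 arrays. The points share their arrays and scaling, so these are descriptions.

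A list of 182 other cell cycle and repair genes in 13 roles showed which steps had similar values. Of these genes 89 were on the array and 79 were tested, and 0 passed limma's threshold in either direction in any of the 5 comparisons. On the CL side 53 of the 79 (67.1%) were lower in summer, against 47.0% of all probes, with a median of −0.17. CL-side autumn replicates 1 and 2 were the arrays with the highest levels for 13 of the 79 (16.5%), against 2.4% of all probes measured on every array. These 13, named after their values were seen, were CDK1, CCNB2, AURKA, CDKN3, KIF20A, NUSAP1, ASPM, ECT2, SMC4, DUT, PRIM2, E2F3 and APEX1. For some the margin was slight. PRIM2 had −0.448 on CL-side autumn replicate 1 against −0.450 on non-CL-side summer replicate 1. SMC4 had −4.449 on CL-side autumn replicate 2 against −4.450 on non-CL-side autumn replicate 2. CCNB2, a mitotic cyclin, had −3.07, −1.68 and −4.57 on CL-side autumn replicates 1 to 3 and −5.31 to −3.24 on the 9 other arrays. CDK1, the kinase that mitotic cyclins activate, had −4.00, −2.50 and −4.62 on these arrays, so its excess was in replicate 2.

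Lists of spindle proteins and of cyclins and kinases had the lowest medians for the season on the CL side, though roles were not compared by a test. All 5 tested motors and microtubule proteins were below 0, with a median of −1.0. The highest mean signals, to which CL-side autumn replicates 1 and 2 themselves contribute, were those of KIF20A, a kinesin of cytokinesis (−1.14 ± 0.55, SE, and −0.52 without CL-side autumn replicate 2), and NUSAP1, which binds spindle microtubules (−1.20 ± 0.54, and −0.73). HMMR, a spindle protein of the same list named after its values were seen, had −0.19 ± 0.25. Of 12 cyclins, kinases and phosphatases 11 were below 0, with a median of −0.51. The brightest here were CCND3, a G1 cyclin (0.10 ± 0.25), and CCNB1, a mitotic cyclin (−1.12 ± 0.95), whose value was 0.30 without the dim array. In cytokinesis 1 of 2 was below 0, with ECT2, the exchange factor that places the cleavage furrow, at −0.70 ± 0.37 and SEPTIN7 at 0.07 ± 0.18. None of these differences passed limma's threshold.

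Genes of replication origins and of the replication fork lay on both sides of 0, unlike those of nucleotide supply. Of 8 origin licensing and firing genes 5 were below 0 (median −0.21), with MCM7, a subunit of the replicative helicase, at −0.19 ± 0.12. GMNN, the inhibitor of relicensing, had 1.1 ± 0.58, and 0.22 without the dim array. At the replication fork 7 of 12 were below 0 (median −0.13), among them RFC3, of the clamp loader, at −0.20 ± 0.17, while RPA2, which coats single-stranded DNA, had 0.23 ± 0.19. All 5 genes of nucleotide supply were below 0 (median −0.27), including TYMS, thymidylate synthase, at −0.58 ± 0.34 and −0.08 without the dim array, and RRM1, of ribonucleotide reductase, at −0.10 ± 0.40 on the 9 arrays where its spot was not flagged. RRM2, the other subunit of that enzyme and named after its values were seen, had −3.03, −2.04 and −5.77 on CL-side autumn replicates 1 to 3. It had −2.70 on the dim array and −6.20 to −5.18 on the 8 others, so the season difference was −0.84 ± 0.91 and the side difference in autumn 1.90 ± 0.91. The 3 transcription factors had a median of −0.15, with E2F3 at −0.15 ± 0.17 and TFDP1 at −0.19 ± 0.14.

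Other roles held genes on both sides of 0 in this comparison. For kinetochore and checkpoint genes the median was 0.09 over 6, with MAD2L1 at −0.05 ± 0.76 and SPC24 at −1.41 ± 0.77, or −0.28 without the dim array. The anaphase-promoting complex had 0.03 over 4 (PTTG1, securin, −0.24 ± 0.16, and CDC23, 0.08 ± 0.21), and condensin, cohesin and chromatin genes −0.06 over 6 (SMC3, −0.13 ± 0.14, and the histone variant H2AZ1, −0.33 ± 0.17). For base excision repair, the pathway of NEIL3, 4 of 10 genes were below 0 and the median was 0.05, with the glycosylases NTHL1 and SMUG1 at −0.19 ± 0.14 and −0.04 ± 0.15. Inhibitors of the cycle had −0.09 over 6, with BTG1 at −0.10 ± 0.21 and GADD45A at 0.62 ± 0.58 on the 6 arrays with a value. Without the dim array the season values of 6 of the 24 genes named by signal changed sign, those of CCNB1, RRM1, CDC23, SMUG1, SEPTIN7 and BTG1. A further 9 moved by over 1.5 times, among them RFC3 to −0.02, TFDP1 to −0.08, H2AZ1 to −0.15 and MAD2L1 to −0.57. No gene of the chromosomal passenger complex other than AURKB was tested.

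On the non-CL side 54 of the 79 genes (68.4%) were lower in summer, against 50% of all probes, with a median of −0.06. The spindle list had −0.04 there and the list of cyclins and kinases −0.06. For the horns in autumn the median over the 79 genes was 0.03.

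**Figure D4:**
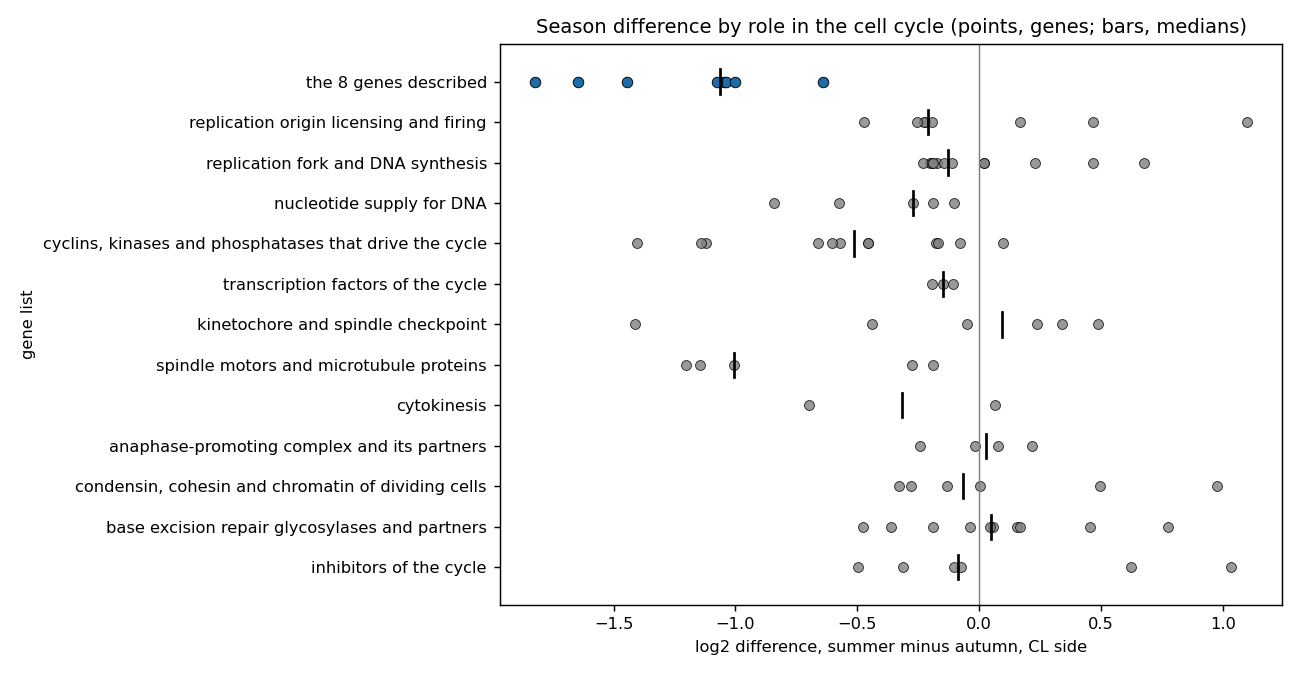
Log2 difference, summer minus autumn, on the CL side for the 8 genes described (blue) and for 79 other genes by role (grey points, 1 per gene), with a bar at the median of each role. The spindle motors and microtubule proteins have a median of −1.0 and base excision repair of 0.05.

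The genes whose profile over the 12 arrays was most like the mean profile of the 8 were sought among 5700 others with a symbol. The 10 with the highest Pearson r, from 0.90 to 0.98, were CDCA2, KIF20A, CDKN3, MND1, ECT2, VIM, TCP1, KCTD12, AURKA and LGALS1. KIF20A, CDKN3, ECT2 and AURKA were in the cell cycle lists, and CDKN3 was well above background on 8 arrays alone. CDCA2, which brings a phosphatase to chromatin at the end of mitosis, had the highest r, 0.98, with levels of −4.54, −3.67 and −5.92 on CL-side autumn replicates 1 to 3 and −6.21 to −5.54 elsewhere. VIM, the intermediate filament gene of mesenchymal cells and a member of the stromal marker list, had 3.22, 3.82 and 2.87 there and 2.59 to 2.87 elsewhere. LGALS1, galectin-1, had 3.33, 3.64 and 2.54, against 1.81 to 2.83. Without CL-side autumn replicates 1 and 2, 5 genes kept r between 0.48 and 0.79, namely TCP1, LGALS1, MND1, CDCA2 and KCTD12. The other 5, CDKN3, KIF20A, ECT2, VIM and AURKA, had −0.24 to 0.22, so their likeness rests on these arrays.

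Markers of several cell types differed between the same arrays or groups. Ciliated epithelium markers (5 of 7) scored −1.33, −0.98 and 0.26 on CL-side autumn replicates 1 to 3, so they were low on the arrays where the mitotic genes were high. In non-CL-side autumn they scored −1.05, −0.62 and 0.69, and in summer 0.15 to 1.22. Granulocyte markers (4 of 8) scored 1.27, 2.76 and 1.30 in CL-side summer and −1.05, −0.09 and −0.12 in CL-side autumn, and squamous epithelium markers (5 of 8) 1.13, 1.93 and 0.14 against −0.61, −0.88 and −0.50. The stromal score, the mean difference of 9 genes from their 12-array means, was 0.63, 0.76 and 0.38 on CL-side autumn replicates 1 to 3, above all other arrays, and −1.41 on the dim array. The summed stromal level, in units of the 75th percentile, was 152 to 179.7 in CL-side autumn, 56.2 to 144 in CL-side summer, 126 to 137 in non-CL-side summer and 123 to 136 in non-CL-side autumn. The stromal score of CL-side autumn replicate 3 was lower than those of replicates 1 and 2, and CL-side summer replicate 3 had 0.21. Smooth muscle markers (5 of 8) scored 1.85, −0.36 and −0.78 on the CL-side autumn arrays, and epithelial markers −0.18, −0.12 and −0.31. In CL-side summer these were −0.03, 1.88 and −0.60, and −0.12, 1.23 and −0.15, so the dim array was high in both. On the CL-side autumn arrays endothelial markers (7 of 8) scored 0.13, −0.12 and −0.25. Macrophage and dendritic cell markers (5 of 8) scored −0.21, 0.52 and −0.02 there. T and NK cell markers (11 of 12) scored −0.22, −0.40 and −0.23, B and plasma cell markers (4 kept of 8) −0.44, 0.15 and −0.19, and pan-leukocyte markers (3 of 4) −0.29, 0.39 and 0.51. The part of any of these cell types in the levels of the 8 genes was not tested.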

How the data were processed

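The 12 arrays were 1-colour Agilent bovine arrays hybridised with RNA amplified from 400 ng per sample, per the labels' protocols. Per the file headers, the deposited processed signals are intensities on a linear scale made with Feature Extraction 9.5.1.1 (9.5 per the submitters' processing notes), with background and spatial trend already removed, and with no scaling across arrays. Deposited mean and background intensities entered only the normexp alternative (offset 50). A table of log2 values for these arrays was also deposited by the authors, who do not state its scale or centring. Their columns ran in the direction of the scanner values (correlation 0.961 to 0.990), had a 75th percentile near 0 and medians of −2.79 to −2.61, and served as an alternative.

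Signals were divided by the 75th percentile of each array's 15208 non-control probes. A floor of −7.28 (log2), taken as the largest of the 12 per-array minima among signals well above background, was set and held 2.06% of kept values. The floor was not part of the fixed design and had to be added, since many signals were 0 or lower and log2 is then undefined. Outlier-flagged values (466) were set to missing. A probe entered the fit (12404 did) if every array of some group had it well above background. Names came from the files or the ARS-UCD2.0 gene table, for 7019 probes and 6689 symbols. PRC1 was named from the probe's description, CENPF from its gene number, CDC45 from a synonym. The brightest probe stood for a gene.

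All arrays entered 1 limma 3.58.1 fit (R 4.3.3) of the 4 groups (8 residual degrees of freedom), with Benjamini-Hochberg adjustment over kept probes. The fit was tested on simulated data. Where no array of a group had a probe well above background, a lower bound on the fold is given. It sets the brighter mean against the dimmer group's detection limit, or its own signal where that was higher, and holds only for this scaling and floor. Named were the 8 genes, the 2 brightest measured genes of each role and the 10 genes most like the mean profile. The 8 genes and all lists were chosen with earlier results of these data known. Same-numbered horns of a season deviated together (correlations of 0.137 to 0.500), as did same-numbered arrays across seasons (0.108 to 0.345), and every array correlated best with its own number. The labels do not say what the numbers share. Promoter and protein sequences were not used here.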

Additional observations from a re-analysis of the deposited data

How the results depend on the processing

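The number of arrays limits every value, and signals near background limit NEIL3 and CDC45 most. For the season on the CL side, CCNA2, CENPF and AURKB also changed with the treatment of background, to a lesser degree. The median of the 8 genes kept its direction under all 23 alternatives for the season on the CL side (−1.29 to −0.84, and −1.64 to −0.69 with 1 array left out) and under all 24 for the side in autumn (0.88 to 1.38, and 0.82 to 1.88). Some of these settings, such as leaving out an array of another group, could not change that median. The genes were picked with these arrays, so no support is drawn from its direction. For the season by side the median was −0.99 to −0.80, and −1.57 to −0.62 with 1 array left out. For the season on the non-CL side it ran from −0.26 to −0.13, and from −0.21 to 0.0055 with 1 array left out. For the side in summer it was 0.31 with the authors' values, 0.31 over the 6 genes detected well above background throughout, and 0.05 to 0.18 with 1 array left out. The cause of these differences was not tested.

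No probe passed limma's threshold with all arrays, while 1228, 139, 230, 175 and 233 had an unadjusted p under 0.05 for the season on the CL side, the season on the non-CL side, the side in autumn, the side in summer and the season by side. With 1 array left out, 0 to 7 passed for the season on the CL side, 0 to 6 for the side in autumn, 0 to 1 for the side in summer and 0 to 1 for the season by side. On the first slide alone 1 probe passed for the season on the non-CL side. With the replicate block, either of the horns of a season or of the number across seasons, 0 probes passed in each comparison, so the pairing changed no call. The medians of the 8 genes were again −1.06, −0.17, 1.28, 0.09 and −0.97 in the same order. Such a block could not change these medians, because every number occurs once in every group.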
